A study of Saccharomyces cerevisiae with 21 samples.

Results

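Loss of Med3 in a budding yeast strain with a tagged Gal11 was studied here in synthetic medium, by comparing 3 arrays of gal11-myc med3Δ with 3 arrays of wild type, both grown in CSM (complete synthetic medium). These 6 arrays were chosen by their sample titles from the 21 arrays of the series, and the comparison covered 5449 S. cerevisiae genes. The mutant carries the labelled genotype MATa his3Δ1 leu2Δ0 ura3Δ0 with srb4Δ::kanMX, GAL11-13MYC::HIS3MX and med3Δ::URA3, and it carries the plasmid RY2844 (CEN LEU2 SRB4). The wild type is labelled MATa his3Δ1 leu2Δ0 met15Δ0 ura3Δ0, and the authors' deposited table calls it BY4741. Both share the his3, leu2 and ura3 alleles, but only the mutant has working URA3 and LEU2 copies, a HIS3MX cassette and SRB4 on a plasmid, and its label lists no met15 allele. The 2 strains thus differ in more than Med3 and the tag, no strain with the tag alone was used here, and each genotype is a single labelled strain. The same 2 strains grown in YPD (rich medium, 3 arrays each) and the second tail mutant, gal11Δ med3Δ in CSM (3 arrays, MATα, with med15Δ::kanMX4 and med3Δ::kanMX4 beside the his3Δ1, leu2Δ0, met15Δ0 and ura3Δ0 alleles of the wild type), serve as points of comparison. RNA came from mid-log cultures at 30 °C and was hybridised to Affymetrix arrays, and the labels do not say whether replicates were separate cultures, so a p-value measures only the spread between these arrays.

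Mediator is the large coactivator that carries signals from DNA-bound activators to RNA polymerase II. Its tail holds Med2, Med3 (gene PGD1), Gal11 (also called Med15), Sin4 (Med16) and, at its root, Rgr1 (Med14). Activators such as Gal4, Gcn4, Pdr1 and heat shock factor touch the tail, chiefly Gal11, and the tail is best known for the regulated genes that depend most on SAGA and carry TATA boxes. Srb4 (Med17), supplied here from a plasmid, is an essential subunit of the Mediator head.

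The deposited values are log2 and each probe set is centred on its median over the 9 CSM arrays, of which 6 are mutant. A value therefore says how a gene stands in an array relative to the other CSM arrays and nothing about how strongly the gene is expressed. Where both mutants move together their values lie close to 0, and the wild type arrays lie away from it. Replicates lay close together, with a median gene SD of 0.046 in gal11-myc med3Δ and 0.056 in wild type, while gal11Δ med3Δ in CSM had 0.141. Differences are gal11-myc med3Δ minus wild type on the log2 scale with the standard error (SE) from limma, fitted over all 21 arrays, and "rose" and "fell" are used where the Benjamini-Hochberg adjusted p over 5449 genes was under 0.05. A gene is "called" where it also differed at least 2-fold. Precision is bounded by the 3 arrays a group, and the median SE of a gene's difference was 0.11.

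The targeted gene was checked first. PGD1 read 0.21, -0.02 and -0.14 in the 3 mutant arrays, against 4.13, 3.92 and 4.14 in wild type, a difference of -4.05 ± 0.14. The groups lie far apart, and the low values are in the arrays labelled med3Δ. GAL11 read -0.09, 0.00 and 0.01 in gal11-myc med3Δ and 0.56, 0.47 and 0.55 in wild type, a difference of -0.55 ± 0.15 (adjusted p = 0.0063, limma). Its transcript was thus present and lower by 1.47-fold, and where its probes lie relative to the tag was not analysed here. In gal11Δ med3Δ, GAL11 stood at -5.62 relative to wild type, far below both other strains.

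URA3 and LEU2 followed the labelled genotypes. HIS3, labelled his3Δ1 in both strains, showed no difference, and neither did MET17. URA3, which makes orotidine-5′-phosphate decarboxylase, read 6.51, 6.43 and 6.33 in gal11-myc med3Δ, against 0.00, -0.23 and -0.06 in wild type. LEU2, the isopropylmalate dehydrogenase carried by the plasmid, read 4.67, 4.58 and 4.74 in gal11-myc med3Δ, against -0.07, 0.33 and -0.34 in wild type. These were the largest differences of all, 6.52 ± 0.18 and 4.69 ± 0.49. HIS3 and MET17 (also called MET15), the other marker genes, differed by 0.03 ± 0.08 and 0.04 ± 0.13, with adjusted p of 0.77 and 0.85 (limma). MET17 read 0.19, 0.04 and 0.00 in gal11-myc med3Δ, against -0.05, 0.13 and 0.04 in wild type, and it stood at -0.10 in gal11Δ med3Δ relative to wild type. The label met15Δ0, given for wild type and gal11Δ med3Δ and not for gal11-myc med3Δ, was thus not mirrored in this gene's values. SRB4 was not among the genes measured, and LYS2, on chromosome II, is taken up with that chromosome. Both strains are labelled MATa, and the genes that define the mating types were compared. STE2, the alpha factor receptor, differed by 0.03 and MFA1 by 0.34, neither passing the test. MF(ALPHA)1, MF(ALPHA)2 and SAG1, which mark alpha cells, differed by 0.17, 0.32 and 0.30 without passing it either, and STE3 is described with the mating genes.

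One whole chromosome stood apart and bears on every count of lower genes. The 387 measured genes of chromosome II had a median difference of -0.74, a ratio of 0.601 to wild type, while the medians of the other 15 chromosomes lay between 0.058 and 0.155. The 3 mutant arrays had chromosome II medians of -0.754, -0.744 and -0.705, and the 3 wild type arrays -0.004, -0.008 and 0.012, each set against the wild type mean. The groups do not overlap, and the shift is about the same in every mutant array. It covers the full length of the chromosome: the median was -0.78 over the 105 genes of the left arm and -0.72 over the 282 genes of the right arm. Chromosome II was also cut into 19 consecutive windows of 20 neighbouring genes, without overlap and leaving out an incomplete window at the end. Their medians ran from -0.904 to -0.269, whereas 246 such windows on the other chromosomes ran from -0.092 to 0.317.

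**Figure D1:**
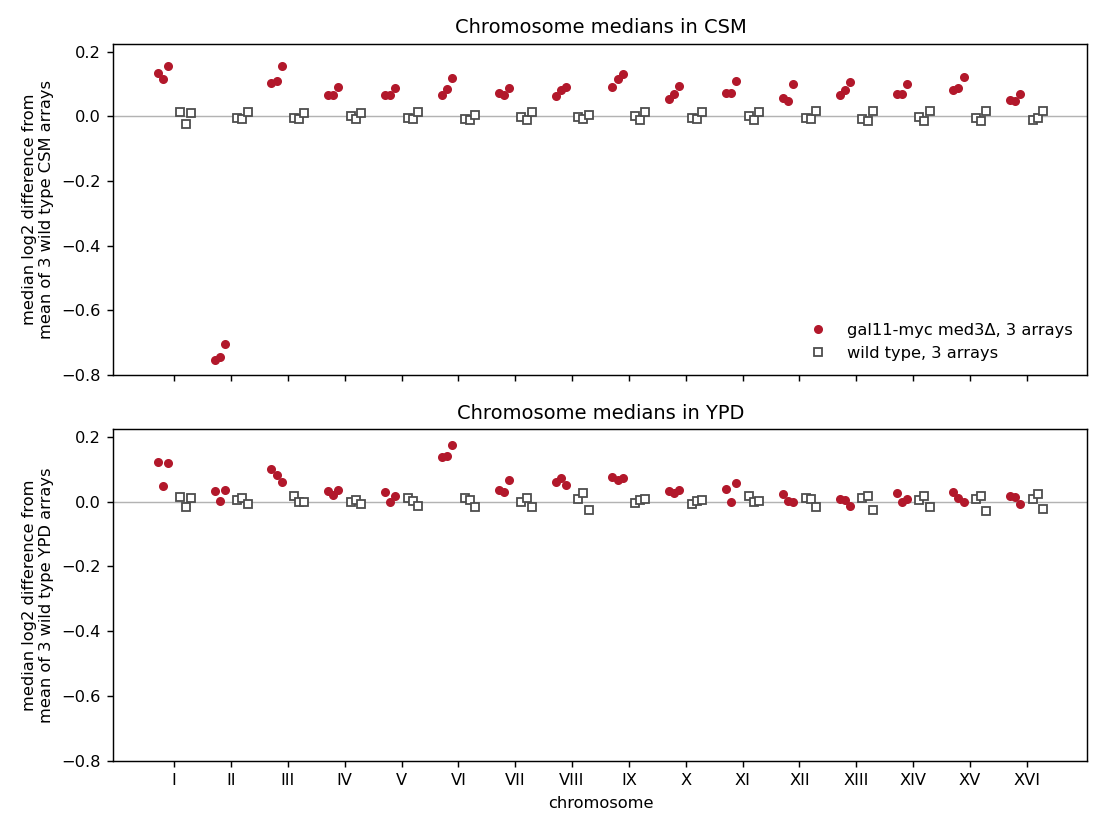
Median log2 difference of the genes of each chromosome from the mean of the 3 wild type arrays, for each array, in CSM (top) and YPD (bottom). Filled circles are gal11-myc med3Δ and open squares wild type. Chromosome II lies between -0.754 and -0.705 in the mutant arrays in CSM and has a median difference of 0.020 in YPD.

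The plot of chromosome medians by array shows that the shift was seen in CSM and not in YPD, where chromosome II had a median difference of 0.020. Within CSM both mutants stood together and apart from wild type. In the deposited values the chromosome II median was -0.057, -0.070 and -0.014 in gal11-myc med3Δ and 0.000, -0.039 and -0.076 in gal11Δ med3Δ, against 0.610, 0.614 and 0.646 in wild type. Between the 2 mutants in CSM the chromosome II median was 0.000, and relative to wild type gal11Δ med3Δ had -0.723, a value that shares the same 3 wild type arrays. The number of copies of chromosome II was not measured, and the centring prevents a comparison of the wild type CSM arrays with the wild type YPD arrays. Of the 387 genes, 361 (93.3%) lay below 0, and 316 (81.7%) fell while 13 rose. On the other 15 chromosomes between 4.19% and 12.7% of genes fell. LYS2, of lysine synthesis, was such a gene, with a difference of -0.92 ± 0.13 and one of -0.21 once the chromosome was recentred. The part of this shift in any single gene's fall on chromosome II was not tested, so results below say which named genes lie there and give their difference after the chromosome was recentred in each array, a step chosen after seeing the data. Counts of gene lists are given without recentring unless stated.

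Over all genes, 161 were called higher in gal11-myc med3Δ (2.95% of those tested) and 178 lower (3.27%). Of the 178 lower genes, 98 (55.1%) lie on chromosome II, which holds 7.10% of the genes, and 80 lie elsewhere. Of the 161 higher genes, 1 lies on chromosome II. With chromosome II recentred the counts were 174 higher and 86 lower. At any size, 1223 genes rose (22.4%) and 772 fell (14.2%), and 456 of the falls were outside chromosome II. Changes beyond 4-fold were seen in 33 of the higher and 25 of the lower genes. The 3 mutant arrays lay wholly above or below the 3 wild type arrays in 3852 genes (70.7%), all 339 called genes among them, so a lack of overlap by itself says little here. The median over all genes was 0.06.

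Among the largest rises were genes that yeast normally keeps low in glucose, in rich supply or, for ANB1, with oxygen. ADH2, the glucose-repressed alcohol dehydrogenase that oxidises ethanol, read -0.07, 0.00 and 0.11 in gal11-myc med3Δ, against -4.45, -4.10 and -4.30 in wild type. Its 3 mutant arrays thus lay far above all wild type arrays, a 19.7-fold difference (4.30 ± 0.36 log2, adjusted p = 7.2e-08, limma). ANB1, the low-oxygen form of the translation factor eIF5A, read 0.13, 0.00 and 0.00 in gal11-myc med3Δ, against -3.77, -3.45 and -3.84 in wild type, 13.3-fold higher. BNA2, the dioxygenase that commits tryptophan to NAD synthesis, read 0.04, -0.05 and 0.00 in gal11-myc med3Δ, against -3.17, -3.26 and -3.28 in wild type, 9.43-fold higher. Neither gene's groups overlapped. MET2, the homoserine acetyltransferase of methionine synthesis, differed by 3.01 ± 0.37 with its mutant arrays at 0.30 to 0.55 and its wild type arrays at -2.66 to -2.39. THI7, the thiamine transporter, differed by 2.95 ± 0.20 and ZRT1, the high-affinity zinc transporter, by 2.76 ± 0.17.

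Genes of sporulation, mating and chromosome ends made up much of the rest of the top. CDA1, a chitin deacetylase of the spore wall, read -0.13, 0.00 and 0.03 in gal11-myc med3Δ, against -3.81, -4.27 and -3.68 in wild type, 14.8-fold higher. SPR3, a septin of sporulation, differed by 2.87 ± 0.17 and FUS1, a membrane protein needed for cell fusion in mating, by 2.67 ± 0.15. COS12, of a family of membrane proteins encoded near telomeres, differed by 3.59 ± 0.29, and the uncharacterised YAR068W by 2.76 ± 0.28. RPS9A, which encodes a protein of the small ribosomal subunit and has a paralog, RPS9B, read 0.00, 0.01 and 0.09 in gal11-myc med3Δ, against -2.99, -2.96 and -2.99 in wild type. It was the only cytosolic ribosomal protein gene, of 127 measured, that changed 2-fold or more. SDD1 (2.67 ± 0.18) was the last of the 15.

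**Figure D2:**
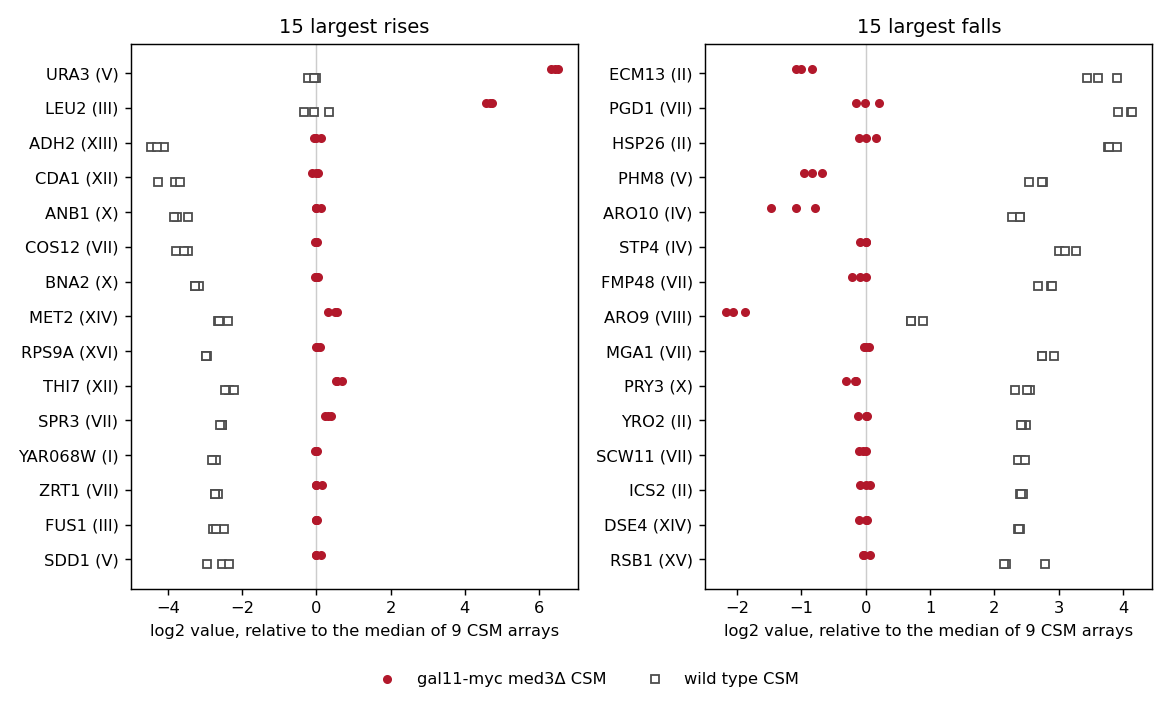
Deposited log2 values, relative to the median of the 9 CSM arrays, of the 15 genes with the largest rises and the 15 with the largest falls, each in 3 gal11-myc med3Δ arrays (filled circles) and 3 wild type arrays (open squares), with the chromosome in brackets. No gene's groups overlap, and ECM13, HSP26, YRO2 and ICS2 lie on chromosome II.

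Among the largest falls, ECM13, a gene of unknown biochemical role on chromosome II, read -0.83, -1.08 and -1.01 in gal11-myc med3Δ, against 3.90, 3.61 and 3.44 in wild type. The difference was -4.62 ± 0.31 and remained -3.91 with the chromosome recentred. HSP26, the major small heat shock protein and also on chromosome II, read 0.00, -0.11 and 0.16 in gal11-myc med3Δ, against 3.91, 3.77 and 3.78 in wild type, a difference of -3.80 ± 0.38 (-3.09 recentred). ICS2 and YRO2 (an opsin-like membrane protein) differed by -2.43 and -2.47 on the same chromosome, and by -1.73 and -1.77 recentred. These 4 falls were thus each larger than the shift of their chromosome.

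The plot of the largest changes shows the falls outside chromosome II. ARO10 and ARO9 encode the phenylpyruvate decarboxylase and the aromatic aminotransferase that begin the breakdown of aromatic amino acids. ARO10 read -1.09, -1.48 and -0.79 in gal11-myc med3Δ, against 2.28, 2.39 and 2.39 in wild type (-3.47 ± 0.38). ARO9 read -2.06, -2.17 and -1.87 in gal11-myc med3Δ, against 0.89, 0.70 and 0.71 in wild type (-2.80 ± 0.26). Both pairs of groups lie well apart. PHM8, a phosphatase induced by phosphate starvation, differed by -3.50 ± 0.39, the zinc finger gene STP4 by -3.15 ± 0.19, and FMP48, a predicted protein kinase, by -2.92 ± 0.19. PRY3, a cell wall protein, differed by -2.67 ± 0.25, and MGA1, which resembles heat shock transcription factors, by -2.79 ± 0.30. SCW11 and DSE4, both glucanases of the daughter cell wall, differed by -2.46 ± 0.20 and -2.40 ± 0.36, and RSB1, a transporter of sphingoid bases, by -2.37 ± 0.24.

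Gene groups are described by how many measured members rose or fell, to be read against the 22.4% and 14.2% of all genes. The lists were drawn up with earlier results of these data known. Of the 5 tail genes of Mediator, GAL11, PGD1 and RGR1 (-0.28 ± 0.08) fell, though RGR1 missed the threshold without wild type replicate 1 (adjusted p = 0.051, limma). MED2 and SIN4 differed by 0.21 and -0.03 without passing the test. Of 15 head and middle genes 3 fell, SRB6, ROX3 and MED8, by 0.88, 0.78 and 0.75, and all of them lie on chromosome II. Their recentred differences were -0.17, -0.07 and -0.04. Of the 4 kinase module genes, SSN8, its cyclin, rose by 0.44.

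Some genes of the mating response rose, in strains both labelled MATa. Of 21 genes of the pheromone response, 7 rose and 0 fell, with a median of 0.27. FUS1 (given above), PRM2 (2.21 ± 0.35) and ASG7 (2.17 ± 0.20) led, followed by PRM5 (1.14 ± 0.15). PRM2 and PRM5 are pheromone-regulated membrane proteins, and ASG7 is an a-cell gene that acts on the signalling G protein. ASG7 read 2.23, 2.22 and 2.19 in gal11-myc med3Δ, against 0.19, 0.00 and -0.06 in wild type, with the groups far apart. Of the 7 a-specific genes, BAR1, the protease that degrades alpha factor, rose by 0.79 ± 0.18 along with ASG7, and the pheromone gene MFA2 fell by 0.58 ± 0.13. Of the 4 alpha-specific genes, STE3, the a-factor receptor, rose by 1.11 ± 0.19. Its arrays lay at -0.09 to 0.03 in gal11-myc med3Δ and at -1.17, -1.36 and -0.87 in wild type. In gal11Δ med3Δ, which is labelled MATα, STE3 stood 4.56 above wild type, so the rise in gal11-myc med3Δ was well short of the level in that strain. HO, the mating type switching endonuclease, fell by 1.39 ± 0.15, and RME1, a repressor of meiosis in haploids, fell by 0.76 ± 0.12.

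Transcripts of sulfur metabolism were among the rises. Of 20 genes for the enzymes of sulfate assimilation and methionine or cysteine synthesis, 10 rose, 2 fell and 8 did not pass, with a median of 0.23. After MET2 came MET14 (1.63 ± 0.32), the adenylylsulfate kinase, MET10 (1.54 ± 0.21), a subunit of sulfite reductase, and MET16 (1.44 ± 0.14), the phosphoadenylylsulfate reductase. MET10 read 0.02, 0.00 and 0.00 in gal11-myc med3Δ, against -1.55, -1.59 and -1.47 in wild type. Of 14 genes of sulfur transport and salvage, 9 rose and 1 fell, with a median of 0.70. MMP1, which takes up S-methylmethionine, rose by 2.56 ± 0.40, SEO1, a putative permease, by 2.38 ± 0.23, MHT1, the S-methylmethionine methyltransferase, by 1.82 ± 0.38 and JLP1, a dioxygenase that frees sulfite from sulfonates, by 1.79 ± 0.20. MMP1 arrays lay at 0.37 to 0.59 in gal11-myc med3Δ and at -2.23 to -1.93 in wild type. The wild type is labelled met15Δ0 and the mutant's label lists no such allele, but MET17 itself did not pass the test, and what the labels' difference does to these genes was not tested.

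Rises were also seen among genes of NAD and vitamin supply. Of 14 NAD genes 10 rose and 1, the nicotinamidase PNC1 (-0.68), fell. Beside BNA2 these were led by BNA1 (1.66 ± 0.19) and BNA5 (1.52 ± 0.14), both enzymes of the pathway from tryptophan, and NRT1 (1.48 ± 0.09), the nicotinamide riboside transporter. NRT1 read 0.44, 0.28 and 0.45 in gal11-myc med3Δ, against -1.08, -1.08 and -1.10 in wild type. Of 7 vitamin B6 genes 5 rose and 1 fell, with SNO1 at 1.97 ± 0.12 and SNZ1 at 1.15 ± 0.15, the paired subunits of pyridoxal phosphate synthesis. Of 15 thiamine genes 7 rose, 2, both on chromosome II, fell and 6 did not pass (median 0.14), and THI73, a putative transporter, rose by 1.72 ± 0.14. Of 6 biotin genes 4 rose and 1 fell, the rises including BIO2, biotin synthase (1.22 ± 0.18), and VHT1, the biotin transporter (0.86 ± 0.14).

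Metal and oxygen genes moved in both directions. Of 13 zinc genes 7 rose, with ZRT1 first, then the wall protein ZPS1 (1.74 ± 0.18) and the vacuolar transporter COT1 (1.06 ± 0.13). Of 28 iron genes 11 rose and 6 fell. FIT3, a mannoprotein that retains siderophores, rose by 1.74 ± 0.37 and HMX1, heme oxygenase, by 1.68 ± 0.21. FTR1 and FET3, the high-affinity iron permease and its oxidase, fell by 0.68 ± 0.09 and 0.48 ± 0.15. Of 22 heme and low-oxygen genes 7 rose and 2 fell. TIR1, a wall mannoprotein made in the cold and without oxygen, rose by 1.53 ± 0.17, SUT1, a regulator of sterol uptake, rose by 0.91 ± 0.15, and ROX1, the repressor of low-oxygen genes including ANB1, fell by 1.24 ± 0.16. ROX1 read 0.00, 0.00 and -0.14 in gal11-myc med3Δ, against 1.19, 1.15 and 1.26 in wild type. Ergosterol genes shifted by small amounts, with 16 of 29 rising, 1 falling and a median of 0.29. Only ARE1, which esterifies sterols, passed 2-fold (1.22 ± 0.14).

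Carbon and nitrogen genes were mixed. Beside ADH2, the carnitine carrier CRC1 read 0.04, 0.00 and 0.00 in gal11-myc med3Δ, against -1.72, -2.53 and -2.20 in wild type (2.17 ± 0.17). Of 19 genes of peroxisomal fatty acid oxidation 5 rose and 1 fell, among them SPS19, the dienoyl-CoA reductase (2.50 ± 0.14), POX1, acyl-CoA oxidase (1.81 ± 0.25), and IDP3, the peroxisomal isocitrate dehydrogenase (1.36 ± 0.11). The hexose transporter gene HXT2 rose by 2.14 ± 0.20 and HXT4 fell by 1.41 ± 0.37. Of 14 glucose repression genes 0 rose and 6 fell, among them the repressor MIG2 (-1.88 ± 0.30) and, on chromosome II, the corepressor CYC8 (-1.11, recentred -0.40). MDH2, the cytosolic malate dehydrogenase of gluconeogenesis, fell by 1.76 ± 0.09. Of 32 nitrogen catabolite repression genes 10 rose and 5 fell, with GDH3, a glutamate dehydrogenase (2.25 ± 0.42), PUT4, the proline permease (1.70 ± 0.37), and DAL1, allantoinase (1.61 ± 0.15), at the top. In gal11Δ med3Δ, measured against the same 3 wild type arrays, 26 of these 32 rose (27.1% of all genes did) and 0 fell (18.4% of all genes did). Between the 2 mutants 19 were lower in gal11-myc med3Δ, as were 10.3% of all genes.

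Falls were seen among stress genes. Of 37 genes activated by the stress factors Msn2 and Msn4, 0 rose, 20 fell and 17 did not pass. Of the falls, 13 were at least 2-fold, and the list median was -0.87. The falls included 3 genes on chromosome II. After HSP26 came YGP1, a secreted glycoprotein (-2.10 ± 0.39), TSL1 and TPS2, subunits of trehalose synthesis (-1.53 ± 0.38 and -1.38 ± 0.30), and DDR2, a small stress protein (-1.48 ± 0.40). TPS2 read 0.00 in all 3 gal11-myc med3Δ arrays, against 1.42, 1.36 and 1.34 in wild type. YGP1 read 0.01, 0.00 and 0.00 in gal11-myc med3Δ, against 2.11, 2.10 and 2.09 in wild type. The groups lie apart in both genes, yet HSP12, another small heat shock protein, differed by -1.07 ± 0.69 without passing the test (adjusted p = 0.25, limma) although its mutant arrays (-0.04 to 0.25) also lay below its wild type arrays (1.07 to 1.28). The SE is that of the fit over all 7 groups, which share 1 spread per gene. In YPD the gal11-myc med3Δ arrays of HSP12 read 0.00, 0.83 and -3.25. All 3 opsin-like membrane proteins fell, HSP30 by 2.33 ± 0.29, YRO2 as given and MRH1 by 0.70 ± 0.09. Of 25 genes of the HSP70, HSP90 and HSP104 families, 6 rose (3 without gal11-myc med3Δ replicate 3) and 4 fell, with a median of 0.06, and 3 of the 4 falls lie on chromosome II.

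Falls outnumbered rises among genes of the cell wall and of daughter cell separation. Of 25 genes of separation and wall enzymes, 3 rose, 15 fell and 7 did not pass, 3 of the falls on chromosome II, with a median of -0.55. The falls held genes expressed in daughter cells: SCW11 and DSE4 as given, and DSE2 (-2.37 ± 0.16). DSE2 read -0.29, -0.27 and -0.37 in gal11-myc med3Δ, against 1.97, 2.06 and 2.16 in wild type. AMN1, which acts in mitotic exit and daughter separation, lies on chromosome II and differed by -2.34 (-1.64 recentred). Of 27 cell wall mannoproteins 3 rose, 12 fell (7 without gal11-myc med3Δ replicate 2) and 12 did not pass, with WSC4, a putative stress sensor (-1.90 ± 0.23), and PST1 (-1.58 ± 0.23) below YGP1. Of 24 cyclin and cell cycle genes 1 rose and 7 fell, among them CLB1, a mitotic cyclin (-1.72 ± 0.27), and CLN3, the first G1 cyclin (-0.80 ± 0.16). RNR1, the large subunit of ribonucleotide reductase, fell by 1.29 ± 0.11, whereas HUG1, an inhibitor of that enzyme, rose by 2.36 ± 0.16.

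Of 20 genes of drug resistance controlled by Pdr1 and Pdr3, 4 rose and 9 fell, 2 of the falls on chromosome II, and the median was -0.49. RSB1 and GRE2, a reductase (-2.12 ± 0.17), fell most, AQR1, an exporter, fell by 1.06 ± 0.21, and RTA1 rose by 1.33 ± 0.17. Of 16 genes of phospholipid and inositol synthesis 1 rose and 7 fell. INO1, which makes inositol phosphate from glucose, read -1.75, -1.88 and -1.59 in gal11-myc med3Δ, against 0.22, 0.03 and 0.00 in wild type, a difference of -1.83 ± 0.16. FAS1, a fatty acid synthase subunit, fell by 0.78 ± 0.12 and HNM1, the choline transporter, by 0.67 ± 0.14. In gal11Δ med3Δ, INO1 stood 0.17 above wild type.

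Sporulation genes that haploid cells keep silent were among the rises. Of 34 genes of meiosis and sporulation 10 rose (29.4%) and 5 fell (14.7%), against 22.4% and 14.2% of all genes. Of these rises 8 were at least 2-fold, while 2.95% of all genes were called higher. After CDA1 these were led by DIT1, an enzyme of the outer spore wall (1.97 ± 0.16), SPS1, a protein kinase (1.89 ± 0.16), and SPO1 (1.66 ± 0.12). SPO22, a meiosis gene, went the other way (-1.46 ± 0.20). DIT1 read 0.12, 0.05 and 0.27 in gal11-myc med3Δ, against -1.88, -1.62 and -1.96 in wild type.

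Amino acid and pyrimidine genes sat beside the strain markers. Of 10 histidine genes, GCN4 and PHO2 included, 0 rose and 4 fell. HIS4, a trifunctional enzyme, read -1.11, -1.16 and -1.20 in gal11-myc med3Δ, against 0.78, 0.72 and 0.73 in wild type (-1.90 ± 0.27), and HIS1, the first enzyme of the pathway, fell by 0.94 ± 0.06. HIS7 lies on chromosome II and differed by -0.49, or 0.22 recentred. URA1, dihydroorotate dehydrogenase, read -1.71, -1.70 and -1.74 in gal11-myc med3Δ and 0.00, 0.02 and 0.00 in wild type (-1.72 ± 0.09). In gal11Δ med3Δ, which is ura3Δ0 like the wild type, URA1 stood 0.14 above wild type. URA4, dihydroorotase, fell by 0.56 ± 0.08 and stood 0.50 above wild type in gal11Δ med3Δ. gal11-myc med3Δ is the strain of the 3 that carries URA3 and HIS3MX, and the part of these markers in the pyrimidine and histidine differences was not tested. BAT2, the cytosolic branched-chain aminotransferase, rose by 1.74 ± 0.13.

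**Figure D3:**
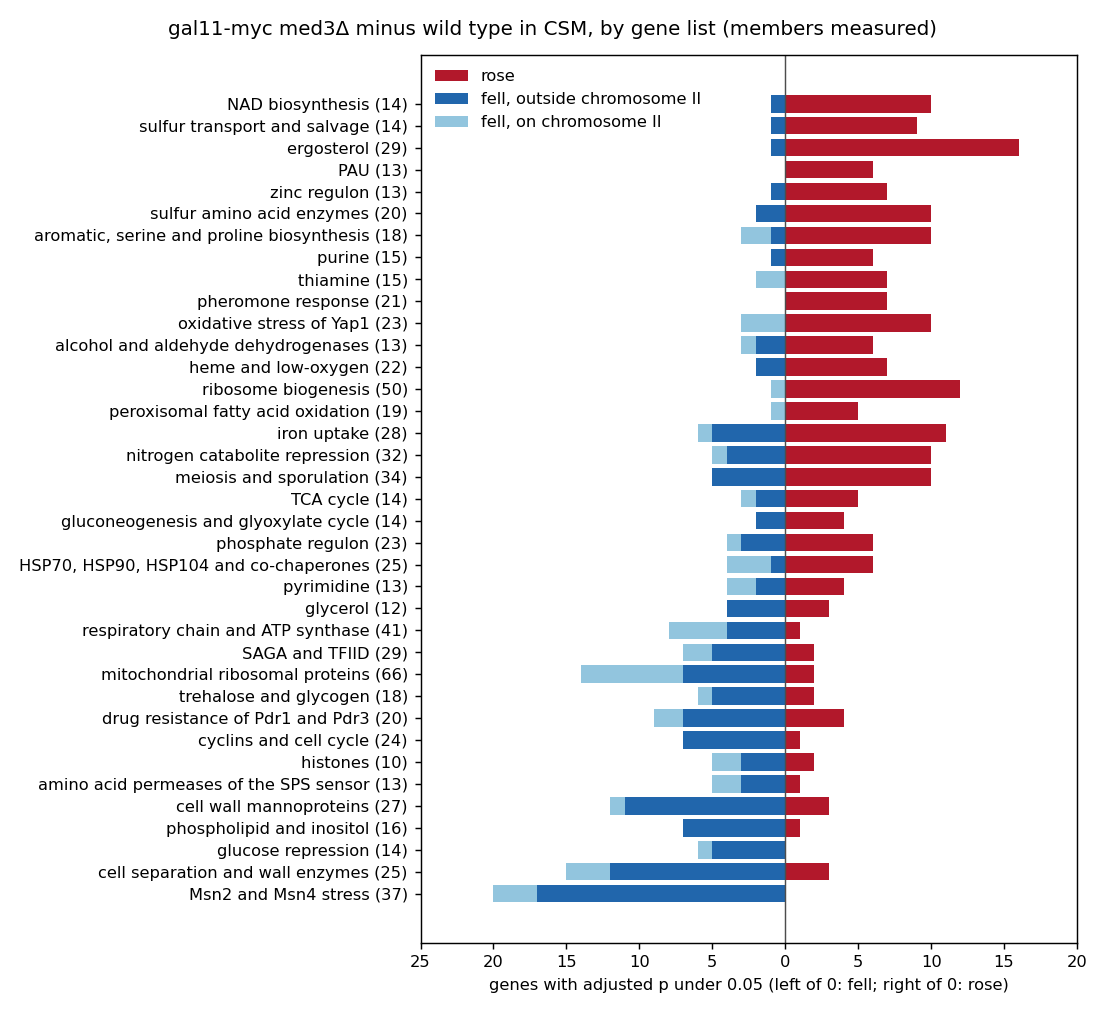
Number of genes of each list that rose (right) or fell (left) at an adjusted p under 0.05 in gal11-myc med3Δ relative to wild type in CSM, with the falls on chromosome II in light blue and the number of measured members in brackets. Lists with at least 10 measured members and 6 passing genes are shown, from the NAD genes (10 rose, 1 fell) down to the Msn2 and Msn4 stress genes (0 rose, 20 fell).

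The plot of gene lists orders these groups and shows how much of each fall lies on chromosome II. Few genes of cytosolic translation and protein turnover passed the test. Of 127 cytosolic ribosomal protein genes 2 rose and 2 fell, and of 33 proteasome genes 2 rose and 2 fell. The 10 cytosolic ribosomal protein genes measured on chromosome II stood apart from its other genes: they lay between -0.22 and -0.003, with a median of -0.08, and 1 of them fell. Of these 10, 5 share a probe set with another gene, and most have a near-identical copy elsewhere in the genome. RPL32, which has no such copy, differed by -0.08, or 0.63 recentred. What shared probe sets or copies do to these values was not tested. With the chromosome recentred, 12 of the 127 rose. The 7 mitochondrial ribosomal protein genes on chromosome II all fell, between -1.08 and -0.64, with a median of -0.82, against 0.10 in YPD. With the chromosome recentred they lay between -0.37 and 0.07, with a median of -0.11, and 3 of the 7 still passed as falls.

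Of 66 mitochondrial ribosomal protein genes 2 rose and 14 fell, of which 7 lie on chromosome II, and of 41 respiratory chain genes 1 rose and 8 fell, 4 of them on that chromosome. The largest respiratory fall outside it was HAP4, the activator of respiratory genes (-1.86 ± 0.17). Of 50 ribosome biogenesis genes 12 rose and 1, on chromosome II, fell, with no rise reaching 2-fold, and 6 or 7 rose when any of 4 single arrays (wild type replicates 1 and 2, gal11-myc med3Δ replicates 2 and 3) was left out. NOP1, the rRNA methyltransferase fibrillarin, rose by 0.68 ± 0.13. In YPD 0 of the 50 rose and 7 fell, where 21.2% of all genes rose and 12.1% fell.

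Higher genes were frequent at chromosome ends. The outermost 10 measured genes of each arm (320 genes, 5.87% of all) held 45 of the 161 called higher genes (28.0%) and 5 of the 178 called lower (2.81%). Of these 320 genes 131 rose (40.9%) and 26 fell (8.13%), with a median of 0.23. Of 9 measured genes with a COS name, 7 rose and 1 fell. The fall was COS111, on chromosome II and not among the outermost genes of its arm. It shares the name but is not counted here with the COS family encoded near telomeres. COS111 differed by -1.36, or -0.65 recentred, when it no longer passed the test (adjusted p = 0.11, limma). COS8 rose by 0.99 ± 0.13. Of 13 PAU genes, seripauperins of similar sequence, 6 rose and 0 fell, but many share probe sets and their values cannot be assigned to single genes. Of the 161 higher genes 14 share a probe set with another gene. Away from chromosome II, the arm with the highest median was the right arm of chromosome I (0.254), where YAR068W, PRM9 (2.13 ± 0.09) and SWH1 (0.74 ± 0.18) lie. Only 23 genes were measured on that arm, and 10 of them are among the outermost genes counted above.

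The same strains in YPD gave a difference with no arrays in common. Each gene's spread was estimated over all 21 arrays, so both tests share an SE and passing in both media is not independent. Of the 161 genes called higher in CSM, 155 had the same sign in YPD and 130 passed the test there in that direction, where 21.2% of all genes did. For the 160 of them outside chromosome II the median was 1.51 in CSM and 0.93 in YPD. Of the 80 genes called lower outside chromosome II, 75 had the same sign in YPD and 60 passed (12.1% of all genes did), with medians of -1.57 in CSM and -1.52 in YPD. Of the 98 lower genes on chromosome II, 78 had the same sign and 28 passed, and their medians were -1.12 in CSM and -0.20 in YPD. Across genes, which are not independent, the differences in the 2 media had a Pearson correlation of 0.66, or 0.72 outside chromosome II.

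**Figure D4:**
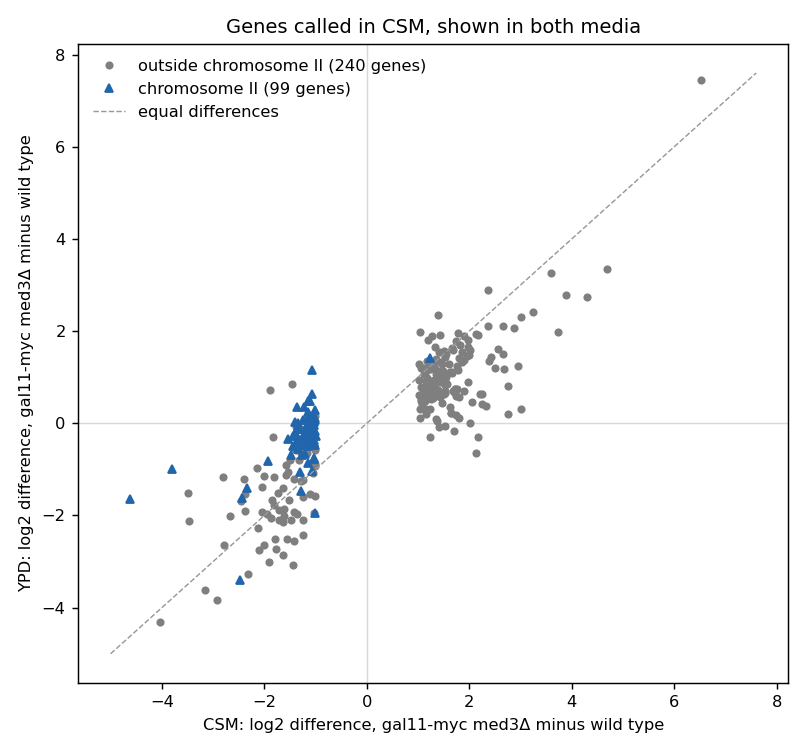
Log2 difference, gal11-myc med3Δ minus wild type, in CSM (horizontal) and in YPD (vertical) for the 339 genes called in CSM. Triangles are the 99 genes on chromosome II and circles the 240 others, and the dashed line marks equal differences. The lower genes on chromosome II have a median of -1.12 in CSM, against -0.20 in YPD, and lie mostly near 0 on the vertical axis.

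The plot of both media shows the chromosome II genes as a cluster away from the line of equal differences. Whether a difference in CSM was other than in YPD was tested as an interaction. It was more positive in CSM for 54 genes (0.991%) and more negative for 113 (2.07%), and 90 of the 113 lie on chromosome II, leaving 23 elsewhere. ZRT1 rose in CSM, while in YPD its mutant arrays read 0.37, 0.83 and -0.20 and its wild type arrays 0.22, 0.16 and 0.00, and the interaction was 2.55 ± 0.25. RPS9A was alike, with a YPD difference of 0.30 and an interaction of 2.71 ± 0.25. HXT2 and CRC1 had CSM differences of 2.14 and 2.17, against -0.63 and -0.30 in YPD, with interactions of 2.77 ± 0.28 and 2.46 ± 0.25. SHH3, a mitochondrial membrane protein, differed by 0.14 in CSM without passing the test and fell in YPD (-2.14).

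On the negative side, HIS4 differed by -1.90 in CSM and 0.71 in YPD, with an interaction of -2.61 ± 0.38. Its YPD difference did not pass the test (adjusted p = 0.052, limma). In YPD its mutant arrays read 0.00, 0.01 and 1.15, and its wild type arrays -0.69, -0.37 and 0.07. SPO22 differed by -1.46 in CSM and 0.84 in YPD, with an interaction of -2.30 ± 0.28. GAL7, of galactose metabolism, differed by -1.07 in CSM and by 1.16 in YPD, and its CSM difference was -0.36 recentred and no longer passed the test (adjusted p = 0.10, limma). It lies on chromosome II, as do ECM13 and HSP26, whose CSM differences were -4.62 and -3.80, against -1.63 and -0.99 in YPD. PGD1, STP4 and COS12 differed by -4.30, -3.61 and 3.26 in YPD, and none of their interactions passed the test. FMP48 differed by -2.92 in CSM and -3.83 in YPD, with an interaction of 0.91 ± 0.27 (adjusted p = 0.035, limma). HIS1 and INO1 differed by -0.09 and -0.30 in YPD.

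Against the other tail mutant in CSM, gal11-myc med3Δ was higher in 38 genes (0.697%) and lower in 80 (1.47%) of the 5449. The 5 largest differences each way were genes of mating type or strain markers. MFA2 was higher by 7.29 ± 0.13, URA3 by 6.48 ± 0.18, LYS2 by 5.96 ± 0.13, HMRA1 by 5.75 ± 0.18 and AGA2, an a-agglutinin subunit, by 5.56 ± 0.19. Those lower in gal11-myc med3Δ were MF(ALPHA)1 (-7.002 ± 0.15), HMLALPHA1, MF(ALPHA)2, SAG1 and STE3, the last 4 with differences of -6.97, -6.42, -3.61 and -3.45. These follow the labelled mating types, MATa for gal11-myc med3Δ and MATα for gal11Δ med3Δ, but the gal11Δ med3Δ label lists no lys2 allele although LYS2 stood at -6.88 there relative to wild type. Mating type and tail genotype cannot be told apart in this pair of strains.

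The largest changes of gal11-myc med3Δ are set beside those of gal11Δ med3Δ, measured against the same 3 wild type CSM arrays. ADH2 differed from wild type by 4.30 in gal11-myc med3Δ and 5.72 in gal11Δ med3Δ, CDA1 by 3.89 in gal11-myc med3Δ and 4.86 in gal11Δ med3Δ, and ZRT1 by 2.76 in gal11-myc med3Δ and 3.19 in gal11Δ med3Δ. HSP26 differed by -3.80 in gal11-myc med3Δ and -5.23 in gal11Δ med3Δ, and FMP48 by -2.92 in gal11-myc med3Δ and -2.94 in gal11Δ med3Δ. The direct test between the mutants, which uses no wild type array in its difference, gave -1.42 ± 0.36 for ADH2 and 1.43 ± 0.38 for HSP26 (adjusted p = 0.010 and 0.015, limma), so both lay nearer to wild type in gal11-myc med3Δ. Other genes lay farther from wild type in gal11-myc med3Δ. ARO9 was lower there than in gal11Δ med3Δ by -2.04 ± 0.26, MDH2 by -1.42 ± 0.09 and INO1 by -2.00 ± 0.16, while FIT3 was higher by 1.28 ± 0.37 and TIR1 by 1.12 ± 0.17. The pheromone genes had 7 of 21 rising in gal11-myc med3Δ (22.4% of all genes) and 12 of 21 in gal11Δ med3Δ (27.1% of all genes). Tested directly, 1 of the 21 was higher in gal11-myc med3Δ and 8 were lower, against 7.65% and 10.3% of all genes. The 2 mutants differ in labelled mating type. Of the 50 ribosome biogenesis genes 12 rose in gal11-myc med3Δ, near the share of all genes (22.4%), and 1 rose in gal11Δ med3Δ, where 27.1% of all genes did. When the mutants were tested against each other, 13 of the 50 were higher in gal11-myc med3Δ, as were 7.65% of all genes.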

How the data were processed

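The authors deposited log2 values for 10928 probe sets on 21 arrays. They were made by RMA (version not given in the sources used here), per the submitters' processing notes. Per the file headers, the authors' fold change table came from GeneSpring 11.5.1, is not log2 and was filtered differently for CSM and YPD. Its fold changes are signed scores, written by the authors as minus the inverse ratio for a fall. Differences of group means matched the log2 of the authors' deposited CSM fold changes within 0.001 for 100% of probe sets. Their table's p-value columns, from the authors' own test, were used only for an alternative count of calls. Each probe set has a median of 0 over the 9 CSM arrays, and likewise over the 9 YPD arrays and the 3 BY4742 arrays, so levels are lost and probe sets could not be filtered on brightness. Of the probe sets, 5498 carry the symbol of an S. cerevisiae gene in RefSeq's gene list (R64, used for names), 1746 carry another symbol, 1 several and 3683 none. Probe sets of a gene were averaged (47 genes), leaving 5449. A mean of 7 groups was fitted with limma 3.58.1 (14 residual degrees of freedom, 2-sided, Benjamini-Hochberg), in R 4.3.3, and the steps were tested on simulated data. The comparison, the 65 lists and the members were chosen with earlier results of these data known. Genes named were the markers, the 15 largest rises and falls among called genes without overlap, up to 4 members a list, 5 each way in the other comparisons, and up to 6 on the most shifted arms. Names outside this rule (among them STE2, PNC1, FTR1, FET3, SIN4 and RPL32) were chosen after their values were seen. Chromosome and arm were read from the systematic name.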

Additional observations from a re-analysis of the deposited data

Results flagged for a closer look

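The effect of gal11-myc med3Δ differed between media by the interaction test for 54 genes in the positive direction and 113 in the negative direction, and 90 of these 113 lie on chromosome II. The largest were HXT2 (2.77), RPS9A (2.71), ZRT1 (2.55), CRC1 (2.46) and SHH3 (2.28), and ECM13 (-2.99), HSP26 (-2.81), HIS4 (-2.61), SPO22 (-2.30) and GAL7 (-2.22). ECM13, HSP26 and GAL7 lie on chromosome II. Probe sets without a single S. cerevisiae symbol were left out of the comparison, and 13 of those without a single symbol were higher and 5 lower in gal11-myc med3Δ CSM at an adjusted p under 0.05 and 2-fold (limma).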

How the results depend on the processing

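The number of genes called lower depends on chromosome II. It was 178 with that chromosome, 80 without its genes and 86 with the chromosome recentred in each array, both chosen after seeing the data, and the genes called lower in the interaction numbered 113, 20 and 25 under the same steps. Genes lower at any size numbered 439 without chromosome II. Counts at any size also depend on the estimate of spread: fitting only the groups compared gave 2124 higher and 1368 lower, and array weights gave 2350 higher and 1470 lower, against 1223 and 772, and array weights gave 85 in place of 54 genes higher in the interaction. Leaving out 1 array at a time kept the genes called higher between 159 and 168 and those called lower between 169 and 180. The interaction's higher genes ran from 44 to 81, the 81 without wild type YPD replicate 3. Between the mutants the genes higher in gal11-myc med3Δ ran from 31 to 40 and those lower from 74 to 96. The authors' deposited fold changes and corrected p-values gave 165 higher and 184 lower. The chromosome II median was -0.7007 as a mean over genes and -0.6083 without the called genes. Its left arm gave -0.7207 and -0.5555 by these steps and ran from -0.7979 to -0.7432 with single arrays left out. Its right arm gave -0.6136 without the called genes and ran from -0.7439 to -0.7095. With chromosome II recentred the sign turned for AGP2 (0.1693), FUS3 (0.1826), HIS7 (0.2161), HTB2 (0.0586), PRE7 (0.205), RPB5 (0.2614), TAT1 (0.2082) and TYR1 (0.0881). Of 270 named genes, 199 kept their direction and side of the threshold under every alternative run. Counts of list members were less stable: of 130 such counts 21 stayed within 1.5 times under every alternative. A 2-fold requirement moved 104 of the 130, recentring chromosome II 22, and leaving out single arrays between 13 and 17. In CSM the replicate numbers showed no pairing of the arrays. Same-numbered gal11-myc med3Δ and wild type CSM arrays deviated with correlations of -0.034, 0.067 and 0.005. A replicate block left 161 genes called higher and 178 lower. Pairing of the YPD arrays was not examined. There replicate 3 had the lowest array weight in both strains, 0.1214 in wild type and 0.1617 in gal11-myc med3Δ. The lowest weight of all 21 arrays, 0.06787, was that of gal11Δ med3Δ CSM replicate 1. A filter on dim probe sets could not be run because levels were centred away, and the authors' table was not used for the interaction or between the mutants.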
